A study of Mus musculus with 16 samples.

Results

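Livers of 3-week-old mice that lacked the nuclear receptors FXR and SHP together were set against what the loss of each receptor alone would add up to. The members are the 8 arrays of 3-week mice among the 16 of the series, 2 from each of 4 genotypes. FXRSHPko mice lacked both receptors and had been bred from the single knockouts, FXRko mice lacked FXR, SHPko mice lacked SHP, and WT mice, bought from a supplier, carried both. All were male, of the C57BL/6 background and on normal chow, and the labels name no Cre or tissue-specific allele for the FXR-/- and SHP-/- lines. Total liver RNA was hybridised to Illumina mouse Ref-8 v1.1 bead arrays, and the 5-week mice of the same genotypes serve below as a comparison.

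FXR, encoded by Nr1h4, is a nuclear receptor that binds bile acids and controls their synthesis, transport and detoxification in hepatocytes. SHP, encoded by Nr0b2, is an orphan receptor without a DNA-binding domain that is itself induced by FXR in liver. It represses other factors, among them LRH-1 and HNF4A, which drive the bile acid enzymes Cyp7a1 and Cyp8b1.

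The measure for each gene was the non-additive contrast, the mean log2 intensity in FXRSHPko minus FXRko minus SHPko plus WT. It is 0 where the change in FXRSHPko livers equals the sum of the changes in the single knockouts, and since the scale is log2, a sum there is a product of fold changes. A contrast was called where limma gave an adjusted p under 0.05 over all genes tested, and values after ± are its standard errors, with 2 arrays per genotype. Called genes were then sorted by which genotypes differed from WT and from each other. In redundant genes only the loss of both changed the level. In synergistic genes the loss of both went further, in the same direction, than the single losses added together. In masked genes a single loss changed the level and the loss of both did not, and in reversed genes the loss of both changed it the opposite way to at least 1 single loss, with neither single loss called the same way. Shared genes changed in one direction in all 3 knockouts by less than the sum. In partly masked genes a single loss changed the level further than the loss of both, and the rest are called other.

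The arrays detected 9769 to 10339 of 24613 probes, and 7852 genes were tested. Nr1h4 read 4.28 and 4.23 on the FXRSHPko arrays and 4.55 and 4.30 on the FXRko arrays, where it was not detected, against 11.14 and 11.16 in SHPko and 10.98 and 10.92 in WT. Its contrast was -0.37 ± 0.15 (adjusted p = 0.12) and was not called. The Nr0b2 probe was not detected on any 3-week array, WT included, and gives no check of the SHP deletion. The second FXRSHPko array had weak labelling controls (a biotin control signal of 1851, where the other 7 arrays had 2834 to 3250), and the duplicates of FXRSHPko differed more than those of the other genotypes (an SD of 0.29 log2, against 0.17 in FXRko, 0.192 in SHPko and 0.173 in WT). Hepatocyte markers averaged 12.25 and 12.02 in FXRSHPko, 11.53 and 11.52 in FXRko, 12.24 and 11.81 in SHPko and 12.22 and 12.20 in WT. Without Apoh and Serpina1e, described below, the other 15 markers averaged 12.21 and 12.14 in FXRSHPko, 12.21 and 12.21 in FXRko, 12.21 and 12.20 in SHPko and 12.18 and 12.19 in WT. Genes of exocrine pancreas averaged 5.46 and 5.46 in FXRSHPko, 5.52 and 5.49 in FXRko and 5.46 and 5.49 in SHPko, against 7.52 and 7.54 in WT. Skeletal muscle genes averaged 7.46 and 7.53 in FXRSHPko, 6.59 and 6.59 in FXRko and 5.46 and 5.46 in SHPko, against 4.65 and 4.69 in WT. Eif2s3y, a Y-linked translation factor gene, was not detected on the FXRko arrays at either age although all mice are given as male, with 7.51 and 7.01 in FXRSHPko, 4.30 and 4.18 in FXRko, 7.36 and 7.23 in SHPko and 7.75 and 7.57 in WT at 3 weeks. Kdm5d, another Y-linked gene, was detected on both FXRko arrays at 5 weeks, at 5.38 and 5.28, against 5.04 and 5.02 in WT of that age, while at 3 weeks it was detected in SHPko and WT and not in FXRSHPko or FXRko. In RNA from whole liver, fewer cells of a type and less RNA per cell cannot be told apart. The part of these in the results below was not tested, except where values without them are given.

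Most genes stayed close to the sum of the single losses. The contrast had a median of 0.003, and 5% of genes lay below -0.576 and 5% above 0.566. Of the 7852 genes, 920 (11.7%) were called, 474 (6.04%) above 0 and 446 (5.68%) below 0, and 235 of them differed from the sum by at least 1 log2 unit, which is 2-fold. The number called was 1408 without the first FXRSHPko array, 1002 without the second and 612 without the second FXRko array. Masked genes were the most frequent pattern, with 262 genes (3.34% of those tested), followed by 153 shared (1.95%), 105 redundant (1.34%), 63 reversed (0.802%), 63 partly masked (0.802%) and 38 synergistic genes (0.484%). The remaining 236 (3.01%), 123 above 0 (1.57%) and 113 below 0 (1.44%), followed none of these patterns. Changes within a pattern were modest for most genes, with a median size of the contrast of 0.672 in redundant, 0.711 in synergistic, 0.711 in masked, 0.962 in reversed and 0.963 in shared genes.

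**Figure D1:**
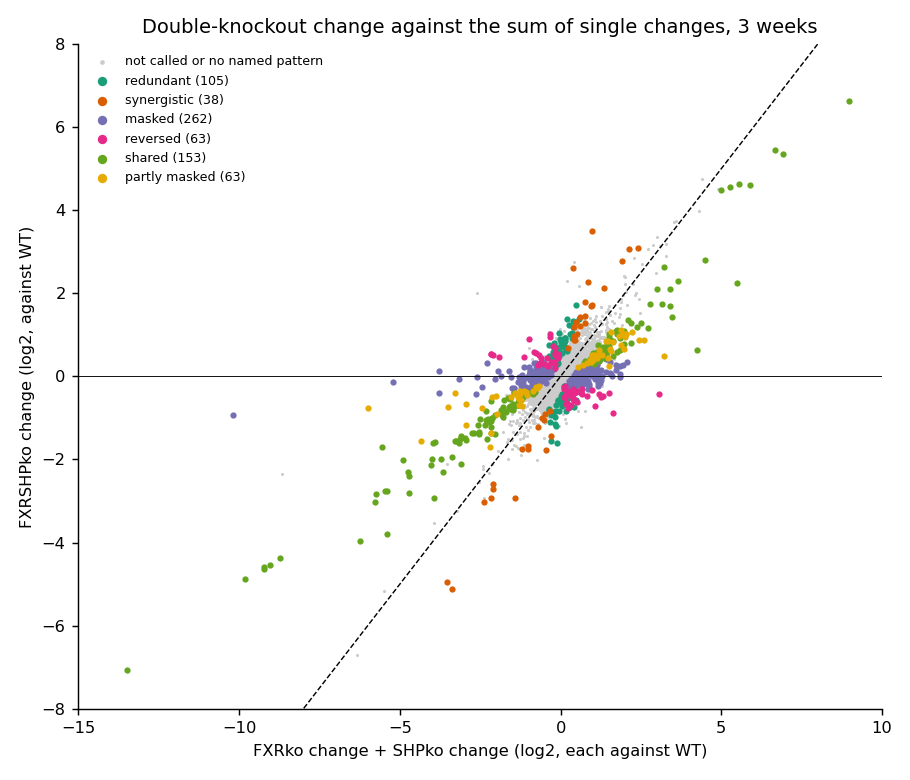
Change from WT in FXRSHPko livers at 3 weeks (vertical axis, log2) against the sum of the changes in FXRko and SHPko livers (horizontal axis, log2), 1 point per gene, coloured by pattern. On the dashed line the contrast is 0. The 105 redundant genes lie near a sum of 0 but away from 0 on the vertical axis, and the 262 masked genes lie near 0 on the vertical axis.

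Loss of both receptors changed 105 genes that neither single loss changed by a call, 56 with a contrast above 0 (0.713% of genes tested) and 49 below 0 (0.624%). The median change of the 56 genes was 0.63 in FXRSHPko, 0.05 in FXRko and -0.08 in SHPko, and that of the 49 genes was -0.53 in FXRSHPko, 0 in FXRko and 0.08 in SHPko. These medians describe the pattern and are fixed by how it was chosen. The count was 303 without the first FXRSHPko array and 61 to 67 without the second FXRko array, the first SHPko array or either WT array.

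In each pattern the genes with the 5 largest contrasts were described, with undetected values at the detection limit, among genes outside other-tissue lists whose duplicates differed by less than the contrast divided by 3. Fkbp5, a co-chaperone that restrains the glucocorticoid receptor and is induced by it, read 8.19 and 8.33 on the FXRSHPko arrays, 7.06 and 7.08 on the FXRko arrays, 6.90 and 6.85 on the SHPko arrays and 6.91 and 6.82 on the WT arrays. Both FXRSHPko arrays stood more than 1 log2 unit above the other 6, which lay together. Its contrast was 1.18 ± 0.14 (adjusted p = 1.5e-05), and at 5 weeks it was 1.15 (adjusted p = 1.5e-05). The 5-week levels had another order, with 7.19 and 7.42 in FXRSHPko, 7.08 and 7.22 in FXRko, 6.90 and 6.88 in SHPko and 7.82 and 7.94 in WT, so that WT was highest there. Plin4, which coats lipid droplets, read 6.70 and 6.40 in FXRSHPko, 5.14 and 4.86 in FXRko, 5.26 and 4.99 in SHPko and 4.75 and 4.89 in WT. It was highest on both FXRSHPko arrays, detected on 1 FXRko array and undetected in WT, with a contrast of 1.24 ± 0.20 (adjusted p = 3.6e-04), or 1.31 when undetected values were raised to the detection limit. Nudt6, a nudix hydrolase gene, went the other way. It read 5.98 and 6.02 in FXRSHPko, 7.28 and 7.31 in FXRko, 7.88 and 7.68 in SHPko and 7.50 and 7.70 in WT, so that the FXRSHPko arrays lay below the 6 others, and its contrast was -1.48 ± 0.18 (adjusted p = 1.2e-05). Sucnr1, the receptor for succinate, read 6.17 and 5.89 in FXRSHPko, 7.11 and 7.21 in FXRko, 7.10 and 7.19 in SHPko and 7.22 and 7.24 in WT. The FXRSHPko arrays were again below all others, and the contrast was -1.04 ± 0.17 (adjusted p = 3.3e-04). The fifth gene, Ccng2, which encodes cyclin G2, read 7.72 and 7.59 in FXRSHPko, 6.85 and 6.60 in FXRko, 6.70 and 6.84 in SHPko and 6.85 and 6.84 in WT, with a contrast of 1.01 ± 0.30 (adjusted p = 0.039). This call was lost in 12 of the alternatives run.

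Among genes of the lists, redundant changes fell on the cholesterol transport protein Stard4 (-0.53 ± 0.16), the clock components Bhlhe40 (-0.78 ± 0.20) and Nr1d2 (-0.58 ± 0.16) and the antiviral gene Oasl1 (-0.83 ± 0.18), all below 0. The MHC class II gene H2-Eb1 (0.73 ± 0.19), the endothelial hyaluronan receptor Lyve1 (0.85 ± 0.18) and the respiratory subunit Cox7b (0.84 ± 0.18) were above 0. Other list members were redundant too, among them Ifi27 below 0 and Pex11a above 0. The calls of Stard4, Nr1d2, H2-Eb1 and Bhlhe40 were lost in 12, 9, 5 and 2 of the alternatives run. The muscle genes Casq1, Mybpc2 and Ryr1, named after their values were seen, were redundant by the same rule, and Ckm, Myl1 and Pgam2 synergistic, in the genotype with the highest mean muscle level of the 4.

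Synergistic changes were few, and 3 of the 5 largest with such duplicates were in sex-biased genes that act on steroids or fatty acids. Of 38 genes, 21 had a contrast above 0 (0.267%) and 17 below 0 (0.217%). The 21 genes had median changes of 1.46 in FXRSHPko, 0.53 in FXRko and 0.10 in SHPko. The 17 genes had medians of -1.75 in FXRSHPko, -0.65 in FXRko and -0.40 in SHPko. The count was 79 without the first FXRSHPko array and 24 and 23 without the first and the second FXRko array.

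Cyp17a1, the steroid 17-alpha-hydroxylase, read 10.59 and 10.82 on the FXRSHPko arrays, 7.55 and 7.61 on the FXRko arrays, 7.86 and 7.78 on the SHPko arrays and 7.19 and 7.23 on the WT arrays. The 2 FXRSHPko arrays were far above the other 6, and both single knockouts lay slightly above WT. It changed by 3.49 in FXRSHPko, 0.37 in FXRko and 0.61 in SHPko against WT, which leaves a contrast of 2.51 ± 0.15 (adjusted p = 1.3e-09). FXRSHPko livers therefore held 5.7 times the Cyp17a1 intensity that the product of the single changes gives. Mgst2, a microsomal glutathione transferase, read 7.32 and 6.75 in FXRSHPko, 5.08 and 4.86 in FXRko, 4.26 and 4.31 in SHPko and 4.57 and 4.30 in WT. It was detected on both FXRSHPko arrays, on 1 FXRko array and on no SHPko or WT array, and its contrast was 2.22 ± 0.24 (adjusted p = 4.3e-06), or 2.07 with undetected values raised to the detection limit. At that limit Mgst2 changed by 2.15 in FXRSHPko, 0.09 in FXRko and -0.01 in SHPko. Its place among synergistic rather than redundant genes therefore rests on FXRko values near the limit.

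The other 3 of these 5 were falls. Hsd3b5, a male-biased 3-ketosteroid reductase, read 5.92 and 6.33 in FXRSHPko, 10.08 and 9.87 in FXRko, 8.72 and 8.52 in SHPko and 10.95 and 11.18 in WT. The genotypes did not overlap, and they ran in the order FXRSHPko, SHPko, FXRko and WT from low to high. Its change of -4.94 in FXRSHPko exceeded the -1.09 in FXRko and -2.45 in SHPko together, with a contrast of -1.40 ± 0.18 (adjusted p = 2.0e-05). Cyp4a12a, the male-specific fatty acid hydroxylase, had the same order, with 4.44 and 4.49 in FXRSHPko, 8.59 and 8.54 in FXRko, 7.18 and 7.23 in SHPko and 9.68 and 9.47 in WT. It was not detected in FXRSHPko, so its contrast of -1.73 ± 0.13 (adjusted p = 2.6e-08), or -1.37 at the detection limit, stands for a fall that could not be followed further down. For both genes the sign of the contrast turned on the linear intensity scale, as it did for 14 of the 920 called genes in all. The fifth gene, Mid1ip1, which promotes the assembly of acetyl-CoA carboxylase, kept its sign on both scales. It read 7.35 and 7.22 in FXRSHPko, 8.63 and 8.63 in FXRko, 9.02 and 9.05 in SHPko and 9.14 and 8.98 in WT, lowest in FXRSHPko and next lowest in FXRko, with a contrast of -1.33 ± 0.18 (adjusted p = 4.2e-05).

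The sex-biased lists as a whole moved with each loss, and some members went beyond the sum. Male-biased liver genes averaged 8.06 and 7.93 in FXRSHPko, 9.11 and 9.11 in FXRko, 8.82 and 8.74 in SHPko and 9.81 and 9.81 in WT, so that FXRSHPko was lowest. Of 28 listed genes 18 passed the detection filter, and of these 15 fell in FXRSHPko, against 12.3% of all genes, 12 fell and 2 rose in FXRko (11.6% and 12.1%), and 14 fell in SHPko (6%). The contrast was called below 0 for 6 and above 0 for 4 members (5.68% and 6.04% of all genes), with a median of -0.015. The 4 synergistic falls were Hsd3b5, Cyp4a12a, Cyp2d9 and Nudt7. Nudt7, a peroxisomal CoA diphosphatase, read 8.95 and 8.23 in FXRSHPko, 11.04 and 11.03 in FXRko, 10.66 and 10.46 in SHPko and 11.56 and 11.46 in WT, with a contrast of -1.50 ± 0.22 (adjusted p = 9.4e-05). Cyp2d9 is a testosterone hydroxylase of male liver, and its contrast was -0.64 ± 0.13 (adjusted p = 2.6e-03). Both FXRSHPko arrays lay below all 4 single-knockout arrays for 10 of the 18 genes, and for 10.5% of all genes tested. Nudt7 and Hao2, whose duplicates lay further apart, had larger contrasts than Mid1ip1.

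Female-biased genes averaged 9.15 and 9.04 in FXRSHPko, 8.02 and 8.04 in FXRko, 8.08 and 8.14 in SHPko and 7.52 and 7.48 in WT, highest in FXRSHPko. Of 30 listed genes 17 passed the filter, and of these 15 rose in FXRSHPko (14.1% of all genes), 11 rose and 4 fell in FXRko, and 10 rose in SHPko (6.55%). The contrast was called above 0 for 5 and below 0 for 4 (6.04% and 5.68% of all genes), with a median of 0.007. Besides Cyp17a1, the synergistic rise was in Hao2, a peroxisomal hydroxy acid oxidase, which read 9.23 and 8.73 in FXRSHPko, 7.76 and 7.81 in FXRko, 6.37 and 6.65 in SHPko and 6.65 and 6.79 in WT. FXRSHPko was highest there, and the contrast was 1.40 ± 0.23 (adjusted p = 4.1e-04). Nudt7, Cyp2d9 and Hao2 were named after their values were seen.

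**Figure D2:**
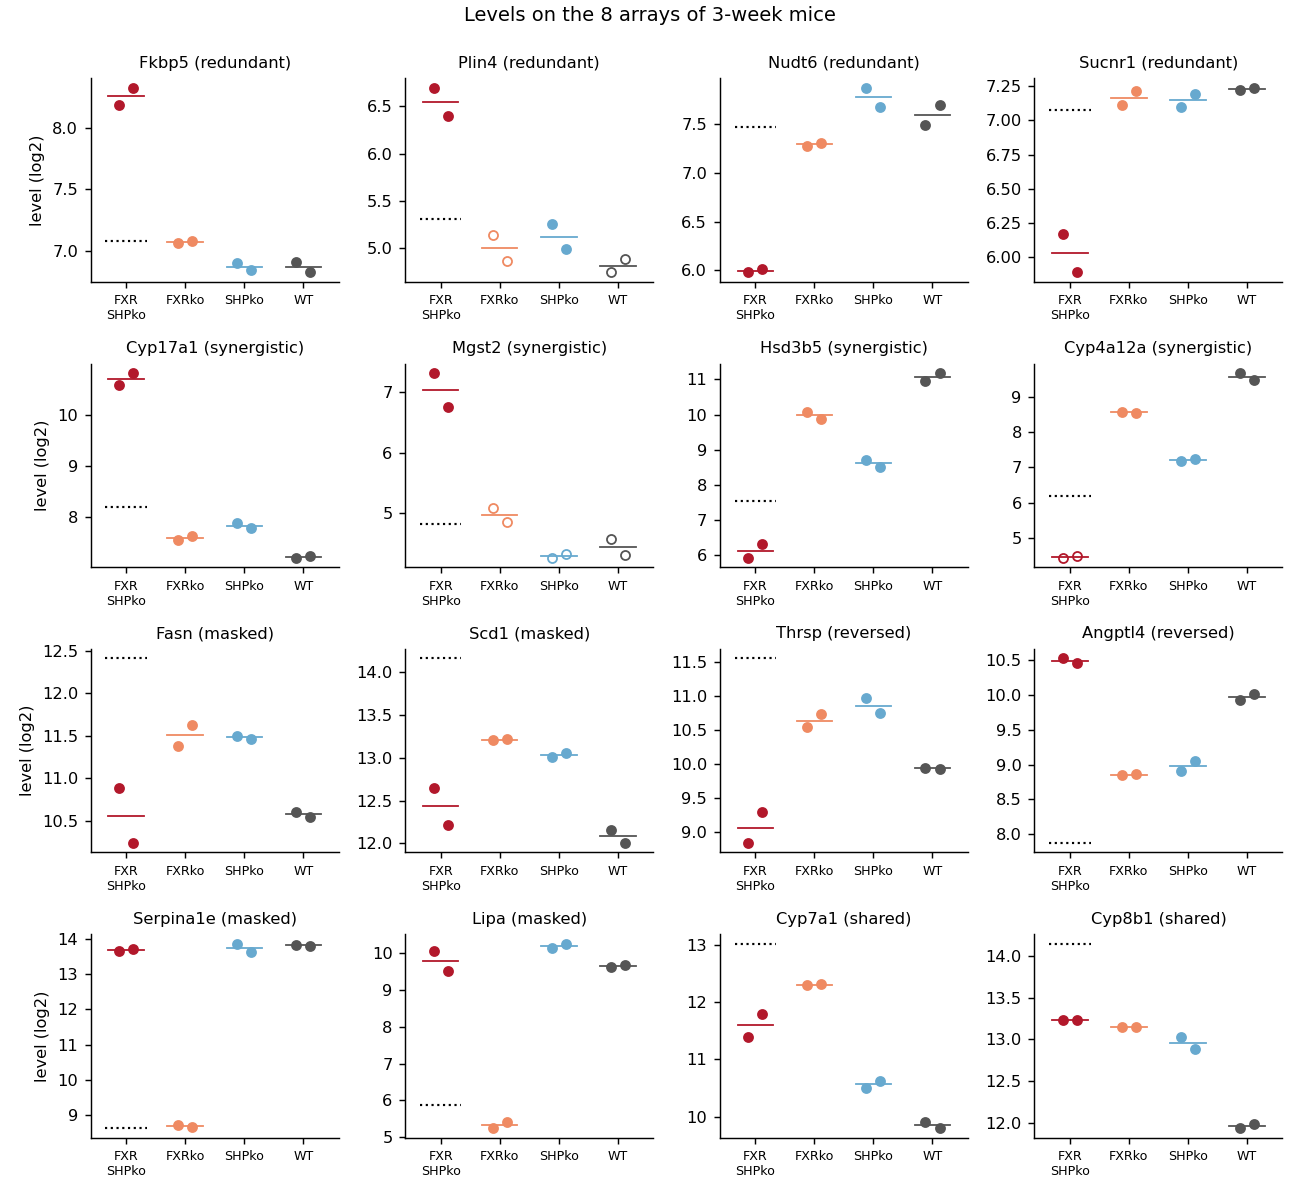
Log2 intensity (vertical axis) of 16 genes on the 8 arrays of 3-week mice, with genotypes from left to right FXRSHPko, FXRko, SHPko and WT. Points are arrays, lines are group means, dotted marks are the level that the single changes add up to, and open symbols are genotypes in which the gene was not detected on both arrays. Cyp17a1 stands above the dotted mark and Fasn, Scd1 and Thrsp below it.

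Masking was the commonest pattern, and genes of fatty acid synthesis that rose in the single knockouts were among the masked ones. In 262 genes a change of a single knockout did not pass the test in FXRSHPko, 132 with a contrast above 0 (1.68%) and 130 below 0 (1.66%). The masked change was that of FXR loss in 141 genes (66 rises and 75 falls), that of SHP loss in 86 (47 rises and 39 falls) and that of both in 33 that changed in one direction (17 rises and 16 falls) and 2 that changed in opposite directions. The 132 genes had median changes of 0.01 in FXRSHPko, -0.42 in FXRko and -0.28 in SHPko, and the 130 genes had 0.03 in FXRSHPko, 0.42 in FXRko and 0.30 in SHPko. A change that does not pass the test in FXRSHPko is not shown to be 0. The count of 262 was 158 and 159 without the first and the second FXRko array, and 173 without the second SHPko array.

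Of 22 listed genes of fatty acid synthesis 18 passed the detection filter, all 18 had a contrast below 0, and 15 were called, against 5.68% of all genes. Of the 15, 5 were masked (3.34% of all genes), 5 shared (1.95%), 3 reversed (0.802%), 1 partly masked (0.802%) and 1 other (3.01%). The list had a median of -0.976, where all genes had 0.003. Its mean level was 9.79 and 9.82 in FXRSHPko, 10.32 and 10.34 in FXRko, 10.10 and 10.07 in SHPko and 9.52 and 9.50 in WT, so that FXRSHPko lay between the single knockouts and WT. In FXRko 17 of the 18 rose (12.1% of all genes) and in SHPko 12 rose (6.55%), but in FXRSHPko 9 rose (14.1%) and 3 fell (12.3%). By direct comparison 12 members were lower in FXRSHPko than in FXRko (7.67% of all genes). Against SHPko 8 were lower (12.4%) and 5 higher (13.5%). Without the second FXRSHPko array at both ages 17 members were called below 0.

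Fasn, the fatty acid synthase, read 10.88 and 10.24 on the FXRSHPko arrays, 11.38 and 11.62 on the FXRko arrays, 11.50 and 11.46 on the SHPko arrays and 10.60 and 10.55 on the WT arrays. The FXRSHPko arrays lay below all 4 single-knockout arrays and around the WT arrays. It changed by -0.02 in FXRSHPko, 0.93 in FXRko and 0.91 in SHPko, with a contrast of -1.85 ± 0.23 (adjusted p = 1.9e-05). Scd1, the stearoyl-CoA desaturase, read 12.65 and 12.22 in FXRSHPko, 13.20 and 13.22 in FXRko, 13.01 and 13.05 in SHPko and 12.16 and 12.00 in WT. Here too FXRSHPko fell short of both single knockouts, by a contrast of -1.72 ± 0.18 (adjusted p = 2.6e-06). Thrsp, a lipogenic regulator also known as Spot 14, read 8.84 and 9.29 in FXRSHPko, 10.54 and 10.73 in FXRko, 10.97 and 10.75 in SHPko and 9.94 and 9.93 in WT. FXRSHPko was the lowest genotype, below WT, so that Thrsp counts as reversed, with a contrast of -2.49 ± 0.17 (adjusted p = 9.2e-09). Thrsp and Mid1ip1 are relatives that act on acetyl-CoA carboxylase, and both were lowest in FXRSHPko.

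Other members were described after their values were seen. ATP citrate lyase, Acly, which supplies acetyl-CoA, had a contrast of -1.30 ± 0.12 (adjusted p = 3.4e-07), and the carboxylase Acaca had -0.73 ± 0.13 (adjusted p = 5.8e-04), both masked. A second, dimmer Acaca probe was called the other way (0.61, adjusted p = 0.031), so that the direction for Acaca is not settled. Mlxipl, which encodes the glucose-responsive factor ChREBP, changed by -0.56 in FXRSHPko, -0.11 in FXRko and 0.57 in SHPko and was reversed (-1.01 ± 0.14, adjusted p = 6.0e-05). Aacs, the acetoacetyl-CoA synthetase, was reversed as well (-1.76 ± 0.20, adjusted p = 5.1e-06). Elovl6 changed by 1.30 in FXRSHPko, 1.70 in FXRko and 0.79 in SHPko and was shared, with a contrast of -1.20 ± 0.14 (adjusted p = 9.1e-06). Pnpla3, a lipid droplet protein driven by SREBP-1c, read 6.05 and 6.10 in FXRSHPko, 7.15 and 7.32 in FXRko, 5.62 and 5.45 in SHPko and 4.83 and 4.49 in WT. It was highest in FXRko and not detected in WT, and its contrast was -2.04 ± 0.18 (adjusted p = 3.2e-07). The 3 members that were not called were Fads1 (-0.37), Dgat2 (-0.17) and Tkt (-0.29).

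**Figure D3:**
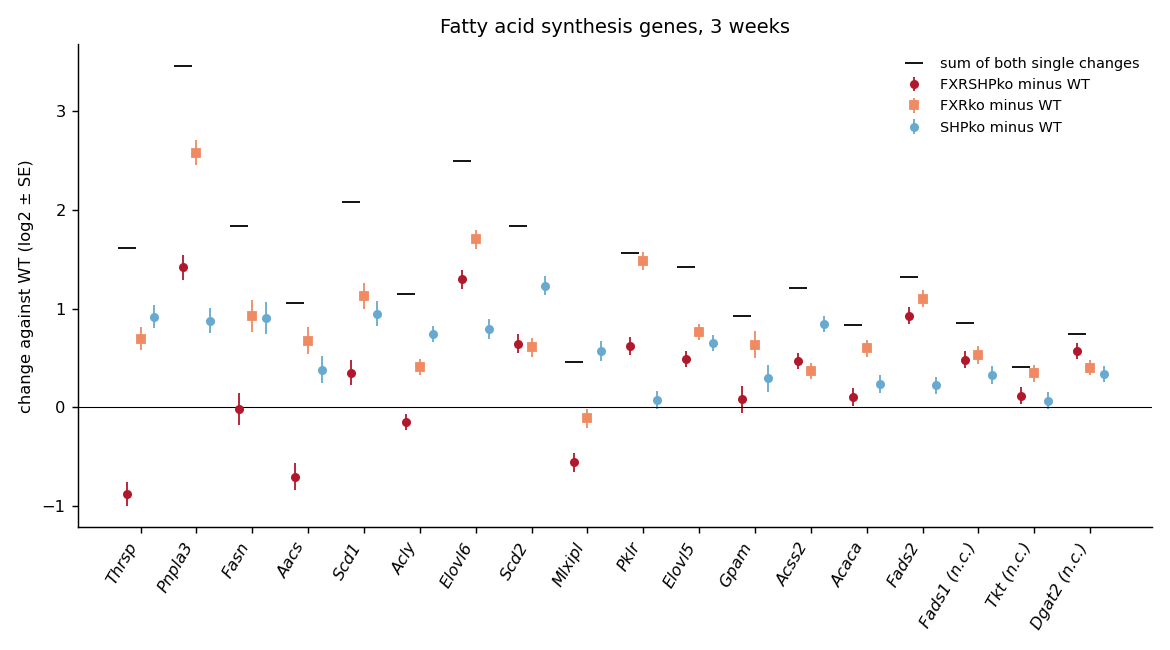
Change from WT (log2, with standard errors) of the 18 measured genes of fatty acid synthesis in FXRSHPko, FXRko and SHPko livers at 3 weeks, with a black bar at the sum of the single changes and n.c. at the 3 genes whose contrast was not called. The FXRSHPko value is below the bar for all 18 genes.

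The promoters of Fasn and Thrsp, the lipogenic genes with the largest masked and reversed contrasts that have an entry in the RefSeq promoter table (GRCm38.p6), and of Mid1ip1 are shown to let the regulatory sequence be read beside these values. Each is the 250 bases before the gene's start, 5′ to 3′ on its strand. Capitals mark CCAAT, the box that NF-Y binds next to SREBP sites in lipogenic promoters, and ACANNNTGT, a palindrome of the kind steroid receptors bind, on either strand.
Fasn, chr11:120824548-120824797 (minus strand): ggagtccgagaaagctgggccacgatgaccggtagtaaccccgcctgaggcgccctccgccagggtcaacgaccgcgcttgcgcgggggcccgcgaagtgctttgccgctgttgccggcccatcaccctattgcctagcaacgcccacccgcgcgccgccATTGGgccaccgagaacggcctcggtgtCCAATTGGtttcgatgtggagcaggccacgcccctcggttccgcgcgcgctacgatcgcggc
Thrsp, chr7:97417551-97417800 (minus strand): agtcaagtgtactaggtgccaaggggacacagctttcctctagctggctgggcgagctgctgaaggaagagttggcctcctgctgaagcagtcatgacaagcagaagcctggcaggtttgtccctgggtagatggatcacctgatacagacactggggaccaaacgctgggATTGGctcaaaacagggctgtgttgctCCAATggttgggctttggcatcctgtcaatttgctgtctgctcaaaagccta
Mid1ip1, chrX:10717115-10717364 (plus strand): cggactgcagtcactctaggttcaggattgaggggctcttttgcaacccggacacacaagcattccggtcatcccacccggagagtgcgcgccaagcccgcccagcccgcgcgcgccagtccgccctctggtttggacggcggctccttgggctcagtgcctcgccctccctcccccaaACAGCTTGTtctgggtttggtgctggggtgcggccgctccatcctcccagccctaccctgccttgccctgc
Fasn holds 3 matches to CCAAT, 2 of which overlap within ccaattgg, Thrsp holds 2, and Mid1ip1 holds 1 match to ACANNNTGT. CCAAT occurred in 8 of 14 fatty acid synthesis promoters (57.1%), against 40.5% of the 6416 tested genes with an entry and 37.5% of all 27025. ACANNNTGT occurred in 7 of 28 synergistic promoters (25%), those of Ak4, C9, Ckm, Mid1ip1, Pdilt, Pigr and Slc22a28, against 4.61% of tested genes. These are 2 of 8 motifs, each searched in every pattern and the fatty acid synthesis list, over windows of 250 bases. The half-site AAGGTCA was in 3 of 28 synergistic (10.7%), 13 of 118 shared (11%), 5 of 206 masked (2.43%) and 0 of 50 partly masked promoters (0%), against 3.94% of tested genes. The LRH-1 site CAAGGTCA, which contains it, was in 2, 6, 1 and 0 promoters of the same patterns (7.14%, 5.08%, 0.485% and 0%), against 1.29%. The FXR inverted repeat was in 1 of the 6416 tested genes. No share was tested, and a match is not shown to be a bound site.

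The largest masked contrasts were in genes that were low in FXRko. Serpina1e, an alpha-1-antitrypsin gene, read 13.66 and 13.72 on the FXRSHPko arrays, 8.71 and 8.65 on the FXRko arrays, 13.87 and 13.63 on the SHPko arrays and 13.84 and 13.80 on the WT arrays. The FXRko arrays were far below the 6 others, which lay together, and the contrast was 5.08 ± 0.12 (adjusted p = 4.7e-15). Lipa, the lysosomal acid lipase, read 10.04 and 9.49 in FXRSHPko, 5.24 and 5.42 in FXRko, 10.13 and 10.24 in SHPko and 9.62 and 9.68 in WT, low in FXRko and slightly above WT in SHPko (3.90 ± 0.18, adjusted p = 4.0e-11). Fcer1g, the Fc receptor gamma chain of myeloid cells, was undetected in FXRko and level elsewhere, with 7.52 and 7.48 in FXRSHPko, 4.21 and 4.22 in FXRko, 7.80 and 7.71 in SHPko and 7.55 and 7.58 in WT. Its contrast was 3.09 ± 0.14 (adjusted p = 2.6e-11), or 2.43 at the detection limit. The list of 17 macrophage and neutrophil markers to which it belongs averaged 7.35 and 7.26 in FXRSHPko, 7.34 and 7.28 in FXRko, 7.09 and 7.12 in SHPko and 7.15 and 7.18 in WT. In that list 1 contrast was called above and 3 below 0 (6.04% and 5.68% of all genes), with a median of 0.061. Like Fcer1g, 40 genes were undetected on both FXRko arrays and detected on the other 6. Of these 15 had a contrast called above 0 (6.04% of all genes), a direction that choosing genes low in FXRko favours. At both ages 12 of the 40 were called above 0, where 291 of all 7852 genes were called in one direction, above or below 0. In Serpina1e, Lipa and Fcer1g the FXRSHPko livers, which lack FXR too, read near the WT level. Apoh, an abundant plasma protein, disagreed between duplicates (11.42 and 8.58 in FXRSHPko, 4.11 and 4.11 in FXRko, 11.05 and 4.11 in SHPko and 11.08 and 10.81 in WT), and its contrast of 9.25 ± 1.81 (adjusted p = 2.0e-03) rests on arrays that do not agree.

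Cyp2c29, a xenobiotic hydroxylase, was masked for falls of both single losses. It read 10.07 and 9.56 in FXRSHPko, 7.66 and 7.90 in FXRko, 8.97 and 8.91 in SHPko and 9.58 and 9.43 in WT, with FXRko lowest, SHPko next and FXRSHPko near WT (2.60 ± 0.24, adjusted p = 6.4e-07). The clock gene Per2 was the opposite case, with 6.41 and 6.36 in FXRSHPko, 6.94 and 7.19 in FXRko, 7.51 and 7.43 in SHPko and 6.34 and 6.34 in WT. It was high in each single knockout and level with WT in FXRSHPko, by a contrast of -1.82 ± 0.17 (adjusted p = 7.2e-07). Insig1, which holds back SREBP processing, read 8.09 and 8.08 in FXRSHPko, 9.08 and 8.81 in FXRko, 8.52 and 8.59 in SHPko and 8.25 and 8.37 in WT. It rose in FXRko and not by the test in FXRSHPko, with a contrast of -1.11 ± 0.14 (adjusted p = 1.9e-05). In the list of cholesterol synthesis genes 3 of 16 were called, all below 0 (5.68% of all genes), with a median of -0.152.

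In 63 genes the loss of both moved the level the opposite way to a single loss, 28 with a contrast above 0 (0.357%) and 35 below 0 (0.446%). In 57 of them 1 single loss was called and in 6 both were, and the estimates of both single losses were opposite to FXRSHPko in 21. The count was 106 without the first FXRSHPko array and 25 and 24 without the first and the second WT array. Angptl4, an inhibitor of lipoprotein lipase that PPAR-alpha and glucocorticoids induce, read 10.52 and 10.45 on the FXRSHPko arrays, 8.85 and 8.86 on the FXRko arrays, 8.91 and 9.06 on the SHPko arrays and 9.92 and 10.01 on the WT arrays. The single knockouts lay about 1 log2 unit below WT and FXRSHPko lay above it, with no overlap, and the contrast was 2.62 ± 0.11 (adjusted p = 1.2e-11). Cyp2c55 had the same form, with 8.82 and 8.46 in FXRSHPko, 7.19 and 7.28 in FXRko, 6.89 and 6.74 in SHPko and 8.16 and 8.05 in WT and a contrast of 2.69 ± 0.19 (adjusted p = 1.3e-08). Tesk1, a protein kinase gene, was undetected in FXRko and read 7.39 and 7.17 in FXRSHPko, 4.35 and 4.50 in FXRko, 6.80 and 7.01 in SHPko and 6.74 and 6.74 in WT (2.69 ± 0.22, adjusted p = 1.2e-07).

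Dct, the dopachrome tautomerase of pigment synthesis, had the largest reversed contrast. It read 6.54 and 6.56 in FXRSHPko, 7.79 and 7.91 in FXRko, 9.23 and 9.12 in SHPko and 6.98 and 6.99 in WT, high in SHPko, intermediate in FXRko and lowest in FXRSHPko, with a contrast of -3.49 ± 0.12 (adjusted p = 5.2e-13). Pck1, the entry enzyme of gluconeogenesis, read 8.89 and 8.42 in FXRSHPko, 7.09 and 7.27 in FXRko, 7.60 and 7.91 in SHPko and 7.54 and 7.73 in WT. It was highest in FXRSHPko and lowest in FXRko (1.35 ± 0.21, adjusted p = 2.1e-04). Socs3, the feedback inhibitor of cytokine signals, ran the other way with 5.79 and 6.22 in FXRSHPko, 7.27 and 7.25 in FXRko, 6.74 and 6.81 in SHPko and 6.42 and 6.44 in WT and a contrast of -1.61 ± 0.19 (adjusted p = 9.0e-06). The acute phase list to which it belongs had 10 contrasts called below 0 (5.68% of all genes) and 3 above 0 (6.04%) of 27 measured genes, with a median of -0.05. PPAR-alpha targets had 6 above 0 and 1 below 0 of 18 (6.04% and 5.68% of all genes), with a median of 0.195.

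Cyp7a1 and Cyp8b1 of bile acid synthesis rose in each knockout, and by less than the sum when both receptors were lost. Cyp7a1, the rate-limiting enzyme, read 11.40 and 11.80 on the FXRSHPko arrays, 12.29 and 12.32 on the FXRko arrays, 10.50 and 10.63 on the SHPko arrays and 9.91 and 9.80 on the WT arrays. FXRko was highest, FXRSHPko next, SHPko below it and WT lowest, with no overlap. It rose by 1.74 in FXRSHPko, 2.45 in FXRko and 0.71 in SHPko, and the contrast was -1.42 ± 0.15 (adjusted p = 2.0e-06). Cyp8b1, which makes cholic acid, read 13.23 and 13.24 in FXRSHPko, 13.15 and 13.15 in FXRko, 13.02 and 12.88 in SHPko and 11.93 and 11.98 in WT. All 3 knockouts lay close together above WT, and the contrast was -0.92 ± 0.12 (adjusted p = 3.1e-05). Cyp7b1, the oxysterol hydroxylase of the alternative pathway, read 8.74 and 9.17 in FXRSHPko, 9.18 and 9.24 in FXRko, 7.97 and 8.06 in SHPko and 9.01 and 9.09 in WT. It was low in SHPko only, and its fall there was masked in FXRSHPko (0.78 ± 0.17, adjusted p = 4.2e-03). At 5 weeks its contrast was called the opposite way, at -0.83 (adjusted p = 2.0e-03). Among 14 measured genes of bile acid synthesis these and Acox2 (0.49 ± 0.14, adjusted p = 0.025), named after its value was seen, were the only ones called. The list had 2 above and 2 below 0 (6.04% and 5.68% of all genes), with a median of 0.225.

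Of 15 bile acid and organic anion transporters 4 were called (11.7% of all genes). The canalicular exporter Abcc2 was reversed by its brightest probe (0.63 ± 0.12, adjusted p = 1.3e-03), where a second probe had the other sign and was not called (-0.19, adjusted p = 0.63). So was the bile salt importer Slc10a1 (-0.66 ± 0.21, adjusted p = 0.044), whose call was lost in 10 of the alternatives run. Of 23 reported FXR targets 5 were above and 2 below 0 (6.04% and 5.68% of all genes), with a median of 0.098. Apoc2, an activator of lipoprotein lipase, read 7.30 and 7.64 in FXRSHPko, 5.90 and 5.54 in FXRko, 8.60 and 8.56 in SHPko and 8.63 and 8.62 in WT. FXRSHPko lay between the low level in FXRko and that in WT (1.80 ± 0.17, adjusted p = 8.3e-07). Vldlr, the VLDL receptor, read 8.60 and 8.68 in FXRSHPko, 8.44 and 8.42 in FXRko, 7.73 and 7.69 in SHPko and 5.70 and 5.96 in WT, high in each knockout and below the sum in FXRSHPko (-1.67 ± 0.18, adjusted p = 3.6e-06). Fgf21, a fasting hormone, read 5.37 and 5.84 in FXRSHPko, 6.06 and 6.02 in FXRko, 4.24 and 4.27 in SHPko and 7.62 and 7.59 in WT. It was low in each knockout, undetected in SHPko and intermediate in FXRSHPko, with a contrast of 2.92 ± 0.19 (adjusted p = 4.3e-09), or 2.29 at the detection limit.

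The 153 shared genes, 85 with a contrast above 0 (1.08%) and 68 below 0 (0.866%), held many genes of other tissues. In 38 of them WT was the only genotype with the gene detected, and there a deeper fall could not have been seen. Of 23 exocrine pancreas genes 21 were called above 0 (6.04% of all genes), 20 of them as shared (1.95%). Of 13 gastrointestinal genes 10 were called above 0, all as shared. WT was the only genotype with detection for 12 of the 23 and 5 of the 13. These passed the detection filter through WT alone, which favours a contrast above 0 and the shared pattern. Gastrointestinal genes averaged 4.81 and 4.85 in FXRSHPko, 4.80 and 4.84 in FXRko, 4.96 and 5.06 in SHPko and 6.95 and 6.86 in WT. Prap1, a secreted protein gene of gut epithelium, was of the same form, with 4.32 and 4.26 in FXRSHPko, 4.25 and 4.23 in FXRko, 4.30 and 4.23 in SHPko and 9.19 and 9.13 in WT. Its contrast of 4.94 ± 0.15 (adjusted p = 2.2e-13) was 4.23 at the detection limit. Leaving out the genes of 5 other-tissue lists took the count of called genes to 870. Cyp4a12b, a male-specific fatty acid hydroxylase, read 4.18 and 4.23 in FXRSHPko, 4.50 and 4.34 in FXRko, 5.85 and 5.48 in SHPko and 8.19 and 8.13 in WT, undetected in FXRSHPko and FXRko. Its contrast was 2.28 ± 0.16 (adjusted p = 2.0e-08), opposite in sign to that of Cyp4a12a. The single changes of Cyp4a12b add up to a level of 1.92, below what undetected arrays read. A fall of that size could not have been seen, which favours a contrast above 0. Cyp4a12a and Cyp4a12b are close relatives whose probes may share transcripts, and the same holds for the Cyp2b and Cyp2c genes.

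**Figure D4:**
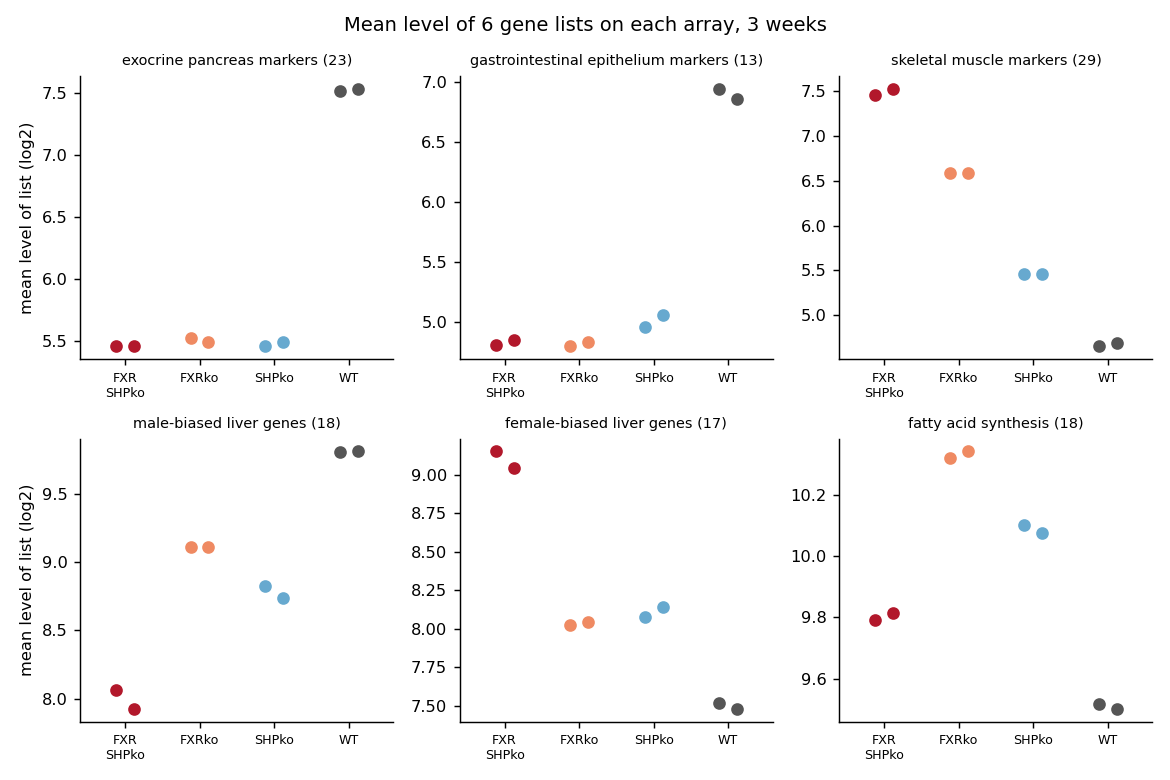
Mean log2 intensity (vertical axis) of 6 gene lists on each array of 3-week mice, with genotypes from left to right FXRSHPko, FXRko, SHPko and WT. Pancreas and gastrointestinal genes are higher on the WT arrays than on the 6 others, muscle genes are highest in FXRSHPko, and fatty acid synthesis genes are highest in FXRko.

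Other shared genes were detected in more than 1 genotype. Cyp2c39, a female-biased hydroxylase, read 7.68 and 7.43 in FXRSHPko, 10.35 and 10.46 in FXRko, 5.72 and 5.67 in SHPko and 5.32 and 5.28 in WT, highest in FXRko and raised less in FXRSHPko (-3.24 ± 0.14, adjusted p = 1.8e-11). Chrna4, a nicotinic receptor subunit, read 5.74 and 5.40 in FXRSHPko, 6.46 and 6.27 in FXRko, 7.78 and 7.75 in SHPko and 4.95 and 4.92 in WT and was highest in SHPko (-3.62 ± 0.23, adjusted p = 4.0e-09). Asns, the asparagine synthetase that ATF4 induces, was high in each knockout, with 8.37 and 8.14 in FXRSHPko, 7.79 and 7.89 in FXRko, 8.58 and 8.75 in SHPko and 6.34 and 6.76 in WT and a contrast of -1.70 ± 0.17 (adjusted p = 1.4e-06). A second Asns probe had the same sign and was not called (-0.69, adjusted p = 0.084).

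In the 63 partly masked genes, 29 above 0 (0.369%) and 34 below 0 (0.433%), the loss of both kept part of the change of 1 single loss. Mgst1, a microsomal glutathione transferase, read 12.85 and 12.46 on the FXRSHPko arrays, 7.33 and 7.73 on the FXRko arrays, 13.33 and 13.24 on the SHPko arrays and 13.40 and 13.42 on the WT arrays. It was far lower in FXRko than elsewhere and slightly low in FXRSHPko, with a contrast of 5.25 ± 0.17 (adjusted p = 2.5e-13). Erdr1 (2.79 ± 0.24, adjusted p = 2.3e-07), Fgfr1op2 (2.87 ± 0.15, adjusted p = 3.1e-10) and the proteasome subunit Psmd8 (2.28 ± 0.16, adjusted p = 1.1e-08) were likewise low in FXRko and nearer WT in FXRSHPko. Tm7sf3, the next tested gene to Fgfr1op2 on its chromosome, had a contrast of 1.70 ± 0.30 (adjusted p = 7.0e-04) and was named after its value was seen. Both are results of 1 probe, since a second Fgfr1op2 probe (0.19, adjusted p = 0.57) and a second Tm7sf3 probe, of the other sign (-0.33, adjusted p = 0.34), were not called. Cyp2c50 was the opposite, with 6.86 and 6.23 in FXRSHPko, 9.36 and 9.31 in FXRko, 6.07 and 5.97 in SHPko and 6.19 and 5.94 in WT, high in FXRko and near WT in FXRSHPko (-2.74 ± 0.24, adjusted p = 2.6e-07).

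The Cyp2b genes, targets of the xenobiotic receptor CAR, followed none of these patterns. Cyp2b9 read 10.81 and 10.86 on the FXRSHPko arrays, 4.27 and 4.38 on the FXRko arrays, 10.66 and 10.74 on the SHPko arrays and 8.82 and 8.81 on the WT arrays. FXRSHPko and SHPko lay close together above WT, and FXRko was undetected, with a contrast of 4.62 ± 0.15 (adjusted p = 2.4e-13), or 4.08 at the detection limit. Cyp2b13, named after its values were seen, had the same order and was also undetected in FXRko, with a contrast of 2.33 ± 0.15 (adjusted p = 3.2e-09). Cyp2b10, also named then, was highest in FXRSHPko, with 8.23 and 7.68 in FXRSHPko, 5.31 and 5.19 in FXRko, 6.81 and 6.94 in SHPko and 5.86 and 5.70 in WT and a contrast of 1.61 ± 0.22 (adjusted p = 4.4e-05). Of 26 CAR and PXR targets 6 were above (6.04% of all genes) and 3 below 0 (5.68%), with a median of 0.046, while 18 rose in FXRSHPko (14.1%).

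The non-additive contrast was then asked of the 5-week mice, whose arrays are separate but were all on another slide, so that age and slide cannot be told apart. The second FXRSHPko array had weak labelling controls at 5 weeks too, with a biotin control signal of 903. The other 5-week arrays had 2959 to 3487. The part of this in the agreement between ages was not tested. There 1026 genes (13.1%) were called, 602 above (7.67%) and 424 below 0 (5.4%). Both ages called 368 genes, 291 in one direction and 77 in opposite directions. The 291 are 31.6% of those called at 3 weeks and 28.4% of those called at 5 weeks, where 9.59% of all genes were called at 5 weeks in the direction of their 3-week contrast. The 2 contrasts correlated across the 7852 genes with a Pearson r of 0.179, as a description, since genes are not independent replicates. The contrasts of the 2 ages differed by a test of the difference in 520 genes (6.62%), 225 above (2.87%) and 295 below 0 (3.76%), and in 833 without the first FXRSHPko array of 3 weeks.

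Synergistic genes were called in the same direction at 5 weeks in 30 of 38 cases (78.9%). Redundant genes were so in 33 of 105 (31.4%), masked genes in 97 of 262 (37%), reversed genes in 29 of 63 (46%), partly masked genes in 22 of 63 (34.9%) and shared genes in 27 of 153 (17.6%). Whether these shares differ between patterns was not tested. Shared genes included 34 called the opposite way at 5 weeks, and for 98 of the 153 (64.1%) the ages differed by the test. Many of the shared genes were pancreas genes, 20 of the 23 measured. Of these 23, 21 were called below 0 at 5 weeks (5.4% of all genes), and the ages differed for 22 (6.62%). At 5 weeks pancreas genes averaged 5.59 and 5.59 in FXRSHPko, 6.37 and 6.33 in FXRko, 8.16 and 8.17 in SHPko and 5.30 and 5.31 in WT. Among named genes Cyp17a1 had a 5-week contrast of 3.28 (adjusted p = 1.1e-11), Mgst2 1.73 (adjusted p = 5.7e-05), Cyp4a12a -1.69 (adjusted p = 1.8e-08) and Cyp7a1 -1.24 (adjusted p = 7.1e-06). Angptl4 was 1.66 (adjusted p = 3.1e-09) there and Socs3 -1.54 (adjusted p = 1.1e-05). A contrast of the same sign is not always the same pattern, and patterns were not assigned at 5 weeks. Cyp4a12a read 11.46 and 11.41 in FXRSHPko, 12.51 and 12.55 in FXRko, 12.46 and 12.41 in SHPko and 11.69 and 11.98 in WT at 5 weeks, so that both single knockouts lay above WT. Angptl4 read 9.70 and 9.73 in FXRSHPko, 9.29 and 9.22 in FXRko, 9.15 and 9.16 in SHPko and 10.44 and 10.29 in WT, with WT highest.

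Scd1 and Thrsp were not called at 5 weeks, with contrasts of 0.08 (adjusted p = 0.84) for Scd1 and -0.42 (adjusted p = 0.12) for Thrsp, and both differed between ages by the test. Fasn was -0.92 (adjusted p = 0.011) at 5 weeks, and its difference between ages was not called. Of the 18 genes of fatty acid synthesis 3 were called at 5 weeks, all below 0 (5.4% of all genes), with a median of -0.289. For 9 of them the difference between ages was called (6.62% of all genes). Fasn, Gpam and Aacs were called below 0 at both ages. In cholesterol synthesis 10 of 16 were called below 0 at 5 weeks (5.4% of all genes), with a median of -0.600, against the 3 at 3 weeks. The difference between ages was called for 4 of the 16. Per2 was -0.12 (adjusted p = 0.73) and Sucnr1 0.21 (adjusted p = 0.49) at 5 weeks, neither of them called.

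**Figure D5:**
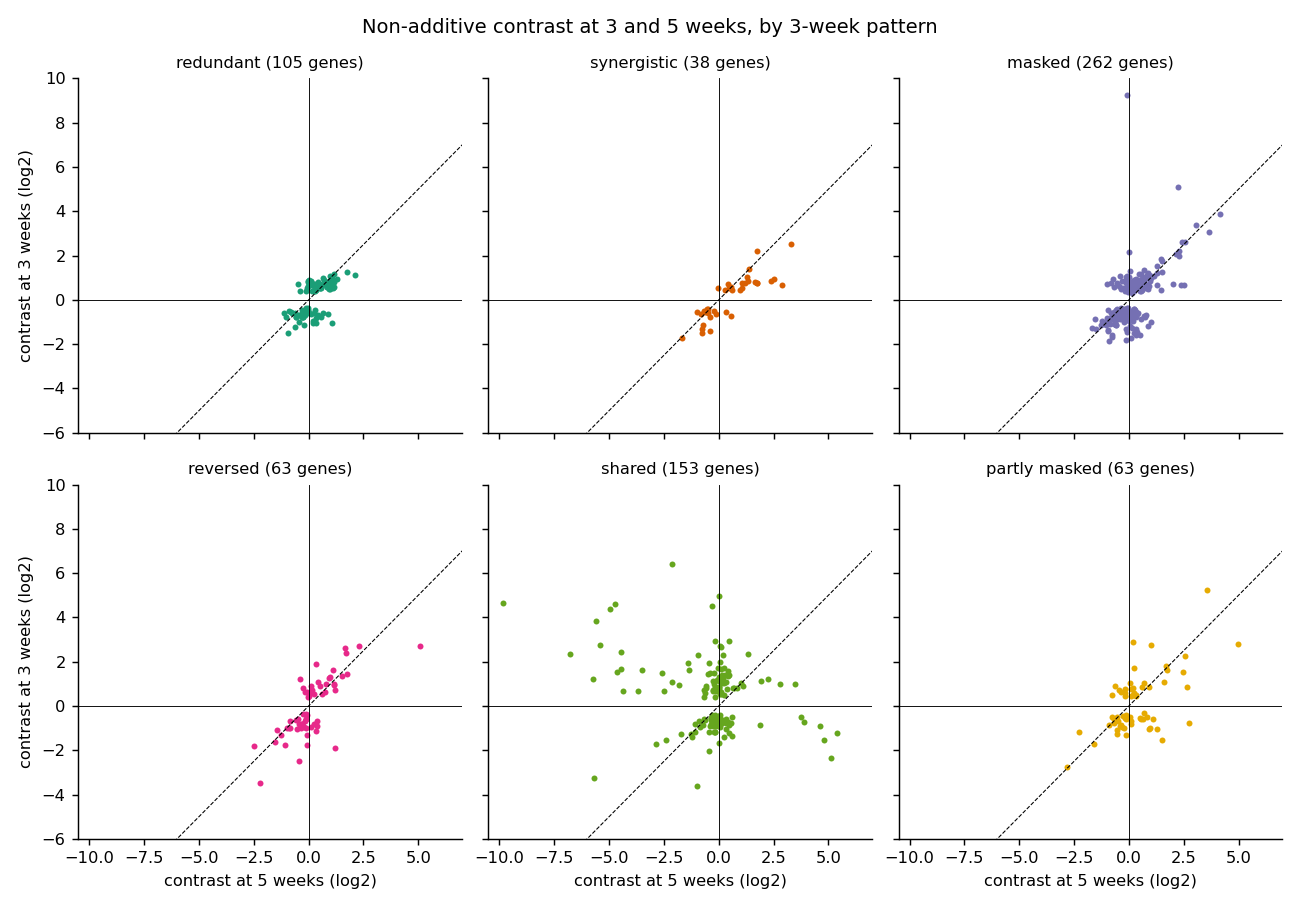
Non-additive contrast (log2) at 3 weeks (vertical axis) against the same contrast at 5 weeks (horizontal axis), 1 point per called gene and 1 panel per pattern, with a dashed line where both ages are equal. Of the 38 synergistic genes 30 were called in the same direction at 5 weeks, and of the 153 shared genes 27.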

How the data were processed

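Bead-array intensity values of liver RNA were used, not normalized, as the authors deposited them. Per the file headers they came from BeadStudio (BSGX 3.2.3), and each probe has a bead standard error of its signal and a detection p-value. The authors' deposited table of log2 values, each column with a median of 6.22 and a Pearson r of 0.9887 to 0.9953 with its own array, served as an alternative, and how it was normalized is not given in the sources used here. Another 16 columns, of bead numbers, were not used.

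All 16 arrays were corrected and normalized with limma 3.58.1 (R 4.3.3) neqc, with an offset of 16. The background was inferred from the detection p-values, and the 858 control probes were not used. Probes detected at p under 0.01 in duplicate in any of the 4 genotypes at 3 weeks were kept, which left 10554 probes (42.9%), 9335 of them with 1 gene symbol, and the brightest probe stood for each of 7852 genes. Of all 24613 probes, 20984 had 1 symbol in the platform annotation, 1 had several and 3628 had none. Second probes of called genes numbered 161, of which 37 were called the same way and 2 the other way, 99 had the same sign without a call and 23 the other sign without a call.

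One linear model with a mean per group over all 16 arrays gave the contrasts (lmFit, contrasts.fit, eBayes with a trend, 8 residual degrees of freedom), with two-sided p adjusted by Benjamini-Hochberg within each contrast. The model was also run on simulated data, which gave all arrays of a gene the same spread. That run therefore does not cover the wider spread of the FXRSHPko duplicates. A contrast uses 2 arrays per group, which limits the precision, and nothing in the labels shows duplicates to be different animals. The p-values then reflect the spread between these samples alone, which may be technical. The replicate numbers did not pair the arrays (correlations of deviations from -0.057 to 0.038).

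The genes named are Nr1h4, Nr0b2, Cyp7a1, Cyp8b1 and Cyp17a1, the 5 largest contrasts per pattern with stable duplicates and outside other-tissue lists, up to 3 called members per gene list, and the 3 largest differences between ages in each direction. The question, patterns and gene lists were chosen with earlier results of these data known. Alternatives in normalization, filter, probe choice, spread, threshold and arrays are given at the end.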

Additional observations from a re-analysis of the deposited data

Results flagged for a closer look

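The non-additive contrast differed between 3 and 5 weeks in 520 genes by the limma test of the difference itself, and the 41 genes among them that the text names are given here as the 3-week minus the 5-week contrast on the log2 scale. The difference was above 0 for Serpina1e (2.86), Angptl4 (0.96), Cyp2c39 (2.45), Cyp4a12b (3.22), Fgf21 (2.47), Mgst1 (1.67), Fgfr1op2 (2.68) and Prap1 (4.93). It was below 0 for Cyp17a1 (-0.77), Sucnr1 (-1.26), Hsd3b5 (-0.98), Dct (-1.26), Cyp2c55 (-2.37), Thrsp (-2.07), Chrna4 (-2.61) and Erdr1 (-2.21). Cyp17a1, Serpina1e, Dct, Cyp2c55, Angptl4, Chrna4, Cyp2c39, Mgst1 and Erdr1 had contrasts called with the same sign at both ages. Other named genes with a difference above 0 were Apoh (9.36), Asns (1.17), Cdca3 (0.80), Cox7b (0.87), Cyp7b1 (1.61), H2-Eb1 (1.22) and Tm7sf3 (1.49), and those below 0 were Acly (-1.19), Bhlhe40 (-1.34), Ckm (-1.50), Cyp2b13 (-2.57), Egr1 (-3.67), Elovl6 (-1.02), Oasl1 (-1.17), Per2 (-1.69), Pgam2 (-1.58), Pnpla3 (-1.61), Scd1 (-1.81) and Vldlr (-1.69). The duplicates of Apoh disagreed. For Cyp4a12b the contrast was 2.28 at 3 weeks and -0.94 at 5 weeks. At 3 weeks it was undetected in FXRSHPko and FXRko, so that a deeper fall could not have been seen there.

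The 3 largest differences between ages in each direction were in pancreas and muscle genes and in 1 gene with unstable duplicates. They were 14.45 for the pancreatic protease Ctrb1, 9.43 for the pancreatic lipase relative Pnliprp1, -7.47 for the muscle actin Acta1, -6.59 for the muscle calcium pump Atp2a1 and -6.34 for the muscle troponin Tnni2. Fbxw5 had a difference of 10.75, but its FXRSHPko arrays at 3 weeks read 8.82 and 4.47.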

How the results depend on the processing

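The 920 called genes numbered 612 to 1408 with 1 array left out, with 320 to 716 above 0 and 292 to 692 below 0, and the highest number came without the first FXRSHPko array. With 1 array left out there were 61 to 303 redundant, 23 to 79 synergistic, 158 to 356 masked, 24 to 106 reversed, 114 to 167 shared, 42 to 63 partly masked and 139 to 337 other genes, and 411 to 833 differences between ages. The cause was not tested. With the replicate number as a block (replicate block) 845 genes were called, 823 of them among the 920, and no pattern count moved by more than 1.5 times. The authors' values called 924, of which 883 were shared with the 920. Fitting the 3-week arrays alone left fewer samples to estimate the spread, and gave 631 called genes, with 174 masked, 40 reversed and 141 other, or 625 when they were also normalized alone, with 172, 39 and 142. Requiring detection on all 8 arrays gave 88 shared genes. Array weights gave 47 redundant, 39 reversed and 32 partly masked genes. Without the second FXRSHPko array at both ages, an alternative chosen after seeing the data, 1152 genes were called, 782 of them among the 920, and 370 were other.

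At an adjusted p under 0.01, 504 genes were called (264 above and 240 below 0), with 45 redundant, 22 synergistic, 138 masked, 23 reversed, 39 partly masked and 133 other, and 299 differences between ages. A contrast of at least 1 left 235 (135 above and 100 below 0), with 11 redundant, 9 synergistic, 62 masked, 26 reversed, 75 shared, 23 partly masked and 29 other, and 305 differences between ages. Both thresholds reuse the main estimates, so no sign could change there. In the alternatives that fitted the same probe again, no called contrast of a named gene changed sign on the log2 scale. Second probes were not part of that comparison, and those of Abcc2, Acaca and Tm7sf3 had the other sign, as given above. Among named genes the call was lost in 182 of the comparisons run, 102 with 1 array left out and 80 in other settings. Signal near the detection limit bounds the falls of Cyp4a12a, Prap1 and other undetected genes.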

Other observations

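Cell cycle genes were high in FXRSHPko and FXRko livers and low in SHPko livers. Their mean level was 6.85 and 6.93 in FXRSHPko, 7.11 and 7.10 in FXRko, 5.76 and 5.72 in SHPko and 6.26 and 6.24 in WT. Of 27 genes 19 rose in FXRSHPko (14.1% of all genes), 24 rose in FXRko (12.1%), and 1 rose and 15 fell in SHPko (6.55% and 6%). The contrast was called above 0 for 5 and below 0 for 2 (6.04% and 5.68% of all genes, here and for the 3-week counts below), with a median of 0.338. Cdca3, a gene of mitotic entry, read 8.77 and 9.07 in FXRSHPko, 9.16 and 9.14 in FXRko, 6.30 and 6.49 in SHPko and 7.77 and 7.78 in WT, with a contrast of 1.15 ± 0.16 (adjusted p = 7.5e-05), the mitotic kinase Aurka had 1.08 ± 0.18 (adjusted p = 5.8e-04) and the spindle protein Prc1 0.97 ± 0.26 (adjusted p = 0.018). All 3 were low in SHPko and at a like level in FXRSHPko and FXRko.

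Immediate early and heat shock genes were high on the FXRko arrays, with a mean level of 7.30 and 7.28 in FXRSHPko, 8.54 and 8.55 in FXRko, 6.87 and 6.81 in SHPko and 7.46 and 7.51 in WT. Of 16 genes 8 were called below 0 and 1 above 0, with a median of -0.518. At 5 weeks 12 were above 0 and none below (7.67% and 5.4% of all genes), with a median of 0.918, and Egr1, an early growth response factor, was -1.58 at 3 weeks and 2.09 at 5 weeks. Interferon response genes were lowest in FXRSHPko, at 6.84 and 6.92, against 7.23 and 7.20 in FXRko, 7.22 and 7.17 in SHPko and 7.17 and 7.17 in WT. In that list 6 of 19 contrasts were called below 0 and none above, with a median of -0.356. Igtp, an interferon-induced GTPase, read 8.12 and 8.08 in FXRSHPko, 9.62 and 9.50 in FXRko, 8.30 and 8.37 in SHPko and 8.73 and 8.83 in WT (-1.02 ± 0.12, adjusted p = 1.6e-05). The count of 6 was 3 without the first SHPko array. Circadian clock genes had 4 of 11 below 0, with a median of -0.214. Time of day of collection is not given in the sources used here.

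Genes of other cell types of the liver gave smaller counts. Stellate cell and matrix genes had 4 of 22 above 0 and none below, with a median of 0.239, led by Sparc, which was undetected in FXRko (2.40 ± 0.20, adjusted p = 1.2e-07). Endothelial markers had 3 of 21 above 0 and none below, with a median of 0.239. Ribosomal proteins had 1 of 25 called and the respiratory chain 2 of 50, with medians of 0.193 and 0.068.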
